A study of Mus musculus with 24 samples.

Results

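Bipolar cells carry the signal of rods and cones to the inner retina, and 8 genes known from these cells were followed through the binding and chromatin peaks of the developing mouse retina: Grm6, Trpm1, Gpr179, Lrit3, Vsx1, Cabp5, Pcp2 and Prkca. They were chosen by symbol, and all 8 were found among 21883 protein-coding genes on chromosomes 1 to 19, X and Y. A peak was assigned to a gene if it shared at least 1 bp with the gene or with the 5 kb on either side.

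The material was whole retina from wild-type mice at postnatal day 2 (P2) or 17 (P17), with 600000 nuclei per reaction. The labels give no strain, sex or number of animals. CUT&RUN, in which an antibody guides a nuclease to a chromatin protein so that the nearby DNA is cut free and sequenced, was run with antibodies to SOX8 (4 libraries per age, from a pair of antibodies), SOX9, H3K4me3, H3K27ac and IgG (2 libraries each per age). Of these 24 libraries the 4 with IgG were not analysed here; the other groups are represented by 8 deposited peak lists, 1 per target and age, which hold positions only. The lists name no replicate and carry no peak height, so the number, width and place of peaks are the whole measurement, no replicate error can be given and no difference below was tested.

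H3K4me3 is a histone mark found at promoters in use, and H3K27ac is found at enhancers in use as well as at promoters. SOX8 and SOX9 are related transcription factors that in the retina are known from progenitors and Müller glia, not from bipolar cells. ON bipolar cells, including the rod bipolar cells, sense glutamate through the receptor mGluR6, whose G protein holds the cation channel TRPM1 shut in the dark; bipolar cells are among the last retinal cell types to form, and in the mouse most arise in the first postnatal week. In whole retina, fewer cells of a type and less signal per cell cannot be told apart.

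In outline, H3K4me3 was present at more of the 8 genes at P17 than at P2, and for H3K27ac the ages differed by Cabp5 alone. SOX9 peaks lay at 2 of the 8 genes and SOX8 peaks at none. H3K4me3 was listed at 2 of 8 members at P2, where 49.3% of all protein-coding genes had a peak, and at 5 of 8 at P17, where 50.9% did. H3K27ac was listed at 6 of 8 at P2 (81.8% of all genes) and at 7 of 8 at P17 (57.0% of all genes). SOX9 was listed at 2 of 8 at P2 (27.7% of all genes) and at 1 of 8 at P17 (15.7%), shares close to those of all genes. SOX8 was listed at 0 of 8 at both ages, against 15.1% and 13.0% of all genes, so no member differed between the ages for SOX8, as 4.94% of all genes did by a peak at P17 only and 7.0% by a peak at P2 only. With 8 genes, each gene is 12.5 percentage points of such a share. The H3K27ac lists differ in size over the whole genome: that of P2 holds 287845 peaks with a median width of 1166 bp over 525.4 Mb, and that of P17 holds 29909 peaks with a median of 3268 bp over 173.4 Mb. More and narrower H3K27ac peaks at P2 than at P17 are a property of the lists, from which such a difference at a single gene cannot be told apart.

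**Figure D1:**
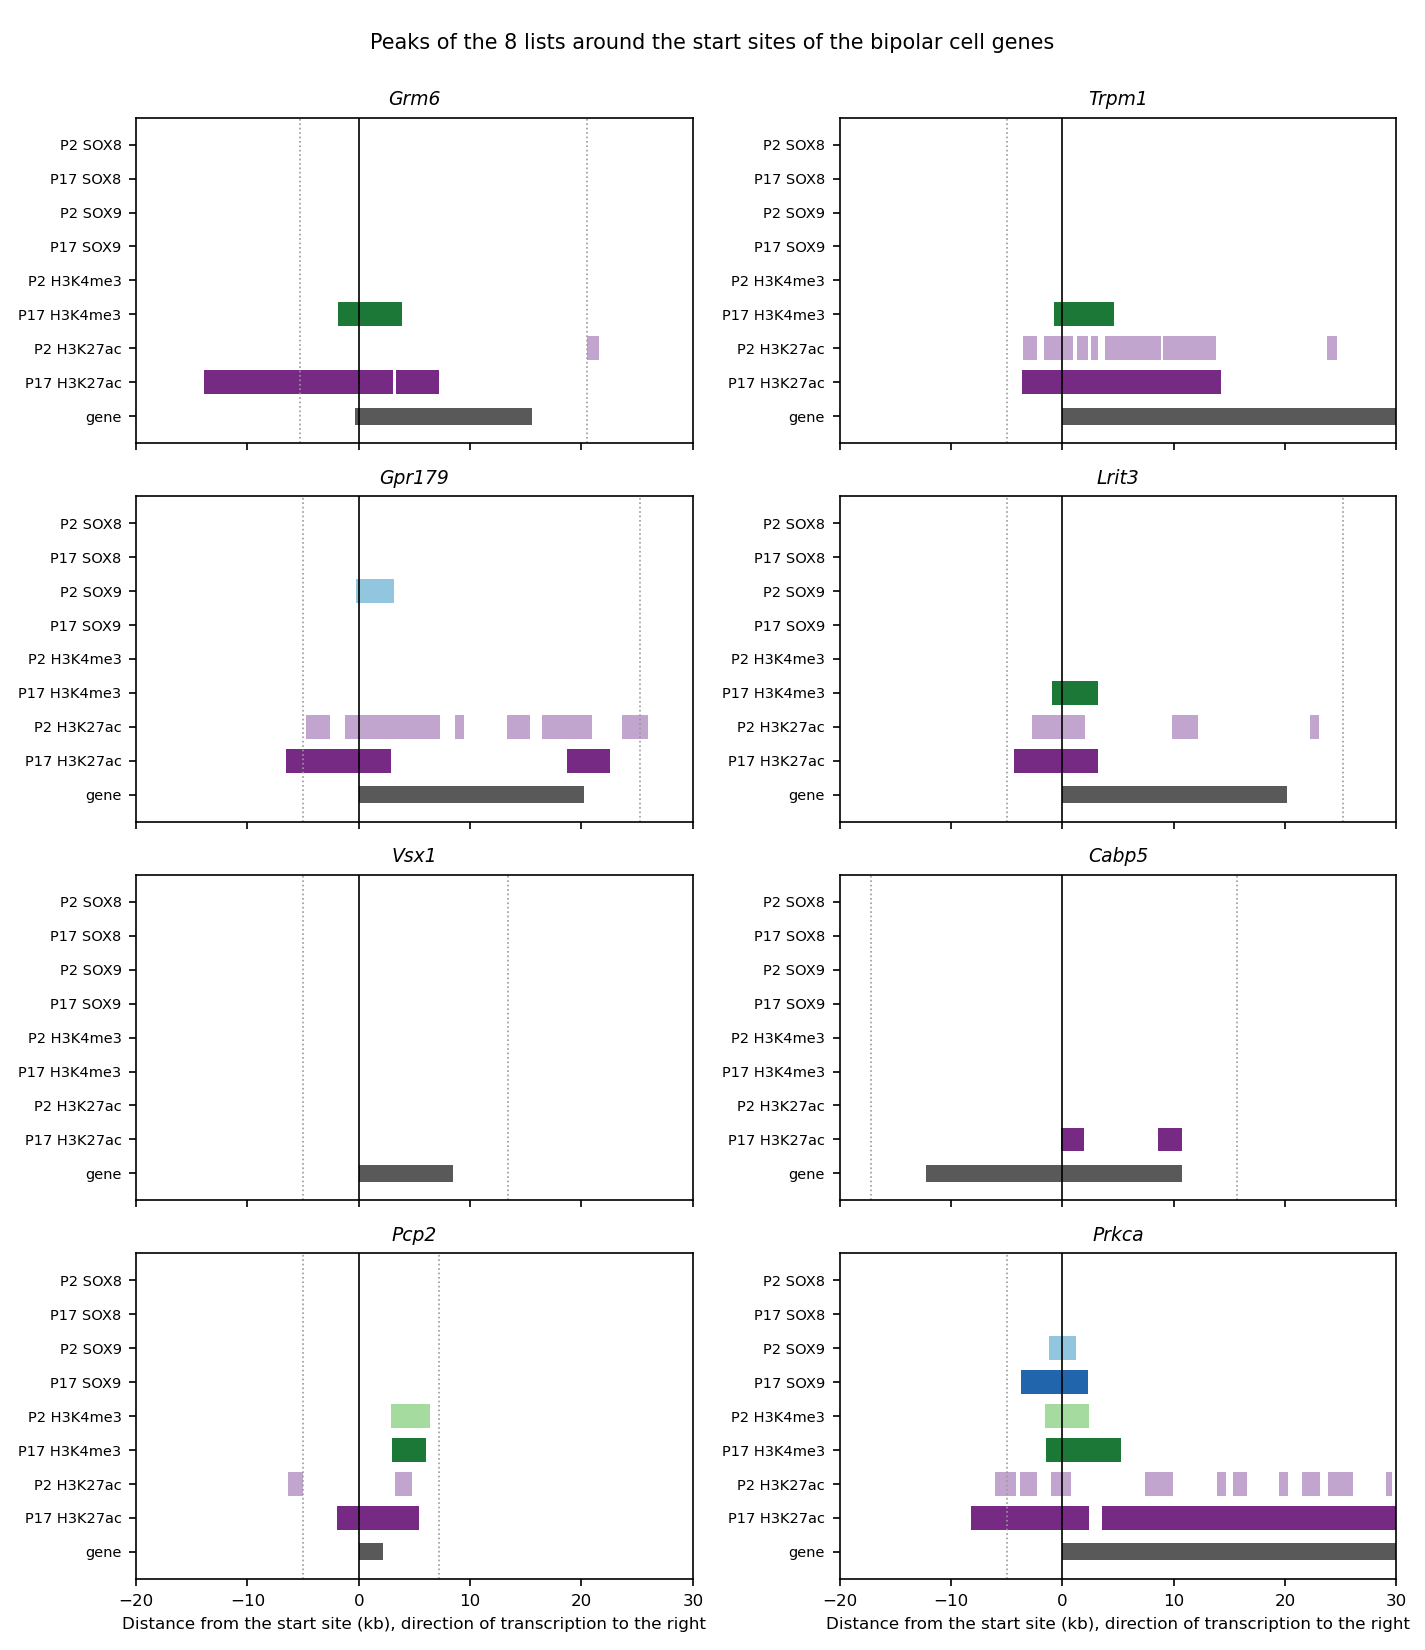
Peaks of the 8 lists at each gene, drawn as bars against distance from the start site in kb (black line; transcription runs to the right), with the gene in grey and dotted lines 5 kb beyond its ends; bars are those peaks that touch this region, pale for P2 and dark for P17, and the view stops 20 kb before and 30 kb after the start site. H3K4me3 bars at the start sites of Grm6, Trpm1 and Lrit3 are present at P17 only, SOX9 bars stand at Gpr179 and Prkca, and the Vsx1 panel is empty.

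The promoters on which these results turn are given from RefSeq (GRCm38.p6), from 250 bases before to 50 bases after the start site, 5′ to 3′ on the gene's own strand. Those of Grm6, Trpm1 and Lrit3 lay inside an H3K4me3 peak at P17 and not at P2. Those of Gpr179 and Prkca lay inside a SOX9 peak, and that of Cabp5 is shown because a P17 H3K27ac peak began within it. Capitals mark letters of 4 short motifs searched on both strands: ACAATG and ACAAAG, which SOX proteins bind, TAATCC, bound by OTX and CRX, and TAATTA, bound by VSX-type homeodomains. No pair of matches overlapped in the promoters shown.
Grm6, chr11:50850435-50850734, plus strand: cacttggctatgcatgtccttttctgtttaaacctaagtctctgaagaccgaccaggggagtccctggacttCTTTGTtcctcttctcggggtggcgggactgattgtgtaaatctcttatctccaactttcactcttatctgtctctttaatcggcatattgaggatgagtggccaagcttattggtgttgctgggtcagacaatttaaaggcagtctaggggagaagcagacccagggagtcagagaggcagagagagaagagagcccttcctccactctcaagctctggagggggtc
Trpm1, chr7:64153585-64153884, plus strand: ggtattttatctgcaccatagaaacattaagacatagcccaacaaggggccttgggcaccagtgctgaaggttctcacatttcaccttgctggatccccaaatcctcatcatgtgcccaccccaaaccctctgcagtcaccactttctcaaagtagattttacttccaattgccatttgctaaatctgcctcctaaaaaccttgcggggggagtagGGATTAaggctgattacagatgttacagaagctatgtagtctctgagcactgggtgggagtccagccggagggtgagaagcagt
Lrit3, chr3:129804087-129804386, minus strand: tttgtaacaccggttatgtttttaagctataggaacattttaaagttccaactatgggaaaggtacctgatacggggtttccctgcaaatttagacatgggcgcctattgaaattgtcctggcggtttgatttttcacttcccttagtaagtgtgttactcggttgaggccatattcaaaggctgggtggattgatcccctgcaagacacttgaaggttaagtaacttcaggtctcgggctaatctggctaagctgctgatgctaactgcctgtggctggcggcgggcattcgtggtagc
Gpr179, chr11:97352307-97352606, minus strand: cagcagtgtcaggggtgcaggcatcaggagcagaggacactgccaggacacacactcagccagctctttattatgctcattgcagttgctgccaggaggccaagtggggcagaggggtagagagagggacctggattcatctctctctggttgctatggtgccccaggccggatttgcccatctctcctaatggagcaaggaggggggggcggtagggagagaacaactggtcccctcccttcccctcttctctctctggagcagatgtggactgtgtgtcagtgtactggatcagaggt
Prkca, chr11:108343839-108344138, minus strand: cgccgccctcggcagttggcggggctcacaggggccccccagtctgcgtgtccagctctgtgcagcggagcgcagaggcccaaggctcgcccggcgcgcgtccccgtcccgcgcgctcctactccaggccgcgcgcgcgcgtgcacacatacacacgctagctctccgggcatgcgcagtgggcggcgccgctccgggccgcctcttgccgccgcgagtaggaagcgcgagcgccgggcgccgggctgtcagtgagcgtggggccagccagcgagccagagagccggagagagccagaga
Cabp5, chr7:13397905-13398204, plus strand: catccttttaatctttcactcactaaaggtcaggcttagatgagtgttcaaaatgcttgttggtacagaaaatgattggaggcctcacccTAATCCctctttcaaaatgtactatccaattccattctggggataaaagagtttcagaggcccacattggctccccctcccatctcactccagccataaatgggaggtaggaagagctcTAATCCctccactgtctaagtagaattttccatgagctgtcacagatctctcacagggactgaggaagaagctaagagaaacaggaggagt

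The letters TAATCC were found at 2 members. Trpm1 holds them once, read as GGATTA, beginning 34 bases before the start site. Cabp5 holds them at 2 places, beginning 160 and 41 bases before the start site. Of 21262 promoters of protein-coding genes in the table, 6.42% hold TAATCC on either strand. A SOX motif stands in the Grm6 promoter as CTTTGT, the reverse complement of ACAAAG, beginning 178 bases before the start site, and at Pcp2 as ACAATG, 1 stretch of letters that falls in 3 of its 4 overlapping promoter windows in the table. Over all promoters, 11% hold ACAATG, 16.8% hold ACAAAG and 25.7% at least either of them. TAATTA was found in 1 of the 4 Pcp2 promoters in the table, against 4.53% of all promoters. The promoters of Gpr179, Prkca, Lrit3 and Vsx1 hold none of the 4 motifs in this window. A match is a stretch of letters and not a site at which binding was measured.

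Base composition set Prkca apart from the others by its values. Its promoter held 42 CpG dinucleotides at 75.3% G and C. The 11 promoters listed for the other 7 members held 0 to 9 CpG at 44.7% to 57.7% G and C, and the median over all 21262 promoters was 13 CpG (quartiles 4 and 24) at 56.3% G and C. Prkca was also the only member whose start site lay inside an H3K4me3 peak at both ages.

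The genes of the mGluR6 cascade come first. Grm6 encodes mGluR6 itself and spans chr11:50850369-50866208 (GRCm38). At P2 its region met no SOX8, SOX9 or H3K4me3 peak, and the single H3K27ac peak (1108 bp, chr11:50871195-50872302) entered the region by 14 bp at its far downstream edge, 20510 bp beyond the start site. At P17 an H3K4me3 peak of 5746 bp (chr11:50848807-50854552) reached from 1878 bp before to 3867 bp after the start site. H3K27ac at P17 had 2 peaks there, of 17021 bp (chr11:50836749-50853769) and 3897 bp (chr11:50854013-50857909). The first covered the start site, was wider than 94.5% of its list, and extended 13936 bp upstream over the start site of the neighbouring gene Zfp879, so it does not belong to Grm6 alone. Both marks thus lay over the Grm6 start site at P17 and neither did at P2. The nearest SOX9 peaks were 396.4 kb from the gene at P2 and 471.2 kb at P17.

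Trpm1, the channel that the cascade controls, spans 115.9 kb at chr7:64153835-64269772 and has 2 start sites in the promoter table. H3K4me3 had no peak there at P2 and 1 at P17, of 5392 bp (chr7:64153123-64158514), which lay over the first start site, from 712 bp before to 4679 bp after it. The second start site, at position 64185459, was in no H3K4me3 peak at either age. As in the lists as a whole, H3K27ac had more and narrower peaks at P2: 24 peaks of 506 to 5792 bp covered 49.4 kb at P2, and 1 peak of 17888 bp (chr7:64150193-64168080) lay over the first start site at P17. Of the bases in the P17 peak, 85.2% were already in a P2 peak, whereas 30.8% of the P2 bases were in the P17 peak. The P2 peaks lay over both start sites and ran to the last part of the gene. So the H3K27ac at the first start site was in both lists, and it was H3K4me3 that was listed there at P17 only. No SOX peak came closer than 103.7 kb at P2 (SOX9) or 213.6 kb at P17 (SOX9 and SOX8, at Klf13).

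Lrit3 encodes a leucine-rich repeat membrane protein of the photoreceptor to ON bipolar synapse, needed for TRPM1 to gather at the dendrite tips, and photoreceptors are also known to make it. Its pattern over the lists matched that of Grm6 and Trpm1. H3K4me3 was absent from the P2 list and had a peak of 4124 bp at P17 (chr3:129800958-129805081), from 945 bp before to 3178 bp after the start site. H3K27ac had 3 peaks at P2, of 801, 2309 and 4746 bp, the last one over the start site, and 1 at P17 of 7511 bp (chr3:129800958-129808468). The P17 peaks of both marks ended at the same base inside the gene, 3178 bp past the start site, and H3K27ac reached 4332 bp upstream. The nearest P2 SOX9 peak was 26016 bp away, at Gar1, and the nearest P17 SOX9 peak 3185 kb away.

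Grm6, Trpm1 and Lrit3 are therefore the 3 of 8 members with H3K4me3 at P17 and none at P2, where 5.0% of all protein-coding genes changed in that way; 0 of 8 had it at P2 only (3.4% of all genes). The same 3 genes shared 1 pattern over the 8 lists (H3K27ac at both ages, H3K4me3 at P17, no SOX peak), which 693 genes, or 3.17%, have. All 3 H3K4me3 peaks were wider than the list's median of 3703 bp and lay over the gene's own start site with no other start site of a protein-coding gene in the table inside them.

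Gpr179 encodes an orphan receptor that holds RGS proteins, the brakes of the G protein, at the same dendrite tips. It differed from the other cascade members in the lists. A SOX9 peak of 3375 bp (chr11:97349236-97352610) lay over its start site at P2, from 254 bp before to 3120 bp after it, and was wider than 76.1% of its list. At P17 the nearest SOX9 peak was 142.9 kb away. The P2 SOX9 peak lay wholly inside a P2 H3K27ac peak of 8553 bp and overlapped no H3K4me3 or SOX8 peak of either age. Gpr179 was the 1 of 8 members with SOX9 at P2 and none at P17, as were 16.3% of all genes, and 0 of 8 had SOX9 at P17 only (4.34% of all genes). H3K27ac had 6 peaks at P2, covering 19.8 kb of the region, and 2 at P17, covering 11.8 kb, of which the larger (9449 bp, chr11:97349446-97358894) lay over the start site and contained 93.8% of the bases of the P2 SOX9 peak. H3K4me3 was not listed within 5 kb of the gene at either age. The nearest H3K4me3 peaks, 8.08 kb away at P2 and 8.55 kb at P17, and the nearest P2 SOX8 peak, 8.96 kb away, lay at the neighbouring gene Socs7. The same pattern over the 8 lists was found in 60 genes, or 0.274%.

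Prkca encodes protein kinase C alpha, the standard marker of rod bipolar cells, and some amacrine cells make it too. At 410.5 kb (chr11:107933387-108343888) it is by far the longest member, and longer genes met SOX9 peaks more often: of genes of 100 kb or more, 36.8% had one at P2 and 17.1% at P17, against 19.7% and 13.8% of genes under 10 kb. Prkca had SOX9 at its start site at both ages, where 22.6% of all start sites were covered at P2 and 10.7% at P17. The P2 peak there was 2425 bp wide (chr11:108342626-108345050) and centred 50 bp after the start site, and the P17 peak was 5953 bp wide (chr11:108341617-108347569) and centred 705 bp before it. The P17 peak contained the whole P2 peak. Median widths of the full SOX9 lists also differed, at 2668 bp for P2 and 5336 bp for P17, so the P2 peak was wider than 38.4% of its list and the P17 peak wider than 61.5% of its own. A second P2 SOX9 peak (2771 bp, chr11:108160594-108163364) lay inside the gene, 180.5 kb from the start site, wholly inside P2 H3K27ac and in no peak of any P17 list. The nearest SOX8 peak was 575.9 kb away at P17 and 667.4 kb at P2.

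The marks at Prkca were present at both ages. H3K4me3 over the start site was 3975 bp wide at P2 (chr11:108341476-108345450) and 6714 bp at P17 (chr11:108338640-108345353), and the P17 peak held 97.6% of the bases of the P2 peak. H3K27ac had 100 peaks at P2, with a median of 1924 bp, which covered 265.0 kb or 63.0% of the region. At P17 it had 23 peaks with a median of 3672 bp, which covered 170.0 kb or 40.4%. The full lists differ in the same direction, with 287845 peaks (median 1166 bp) at P2 and 29909 (median 3268 bp) at P17. The widest P17 peak spanned 73.5 kb (chr11:108266805-108340279) in the first part of the gene, beginning 3609 bp after the start site, and was wider than 99.7% of its list. A separate peak of 10567 bp lay over the start site. Of the P17 H3K27ac bases, 69.2% were in a P2 peak.

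**Figure D2:**
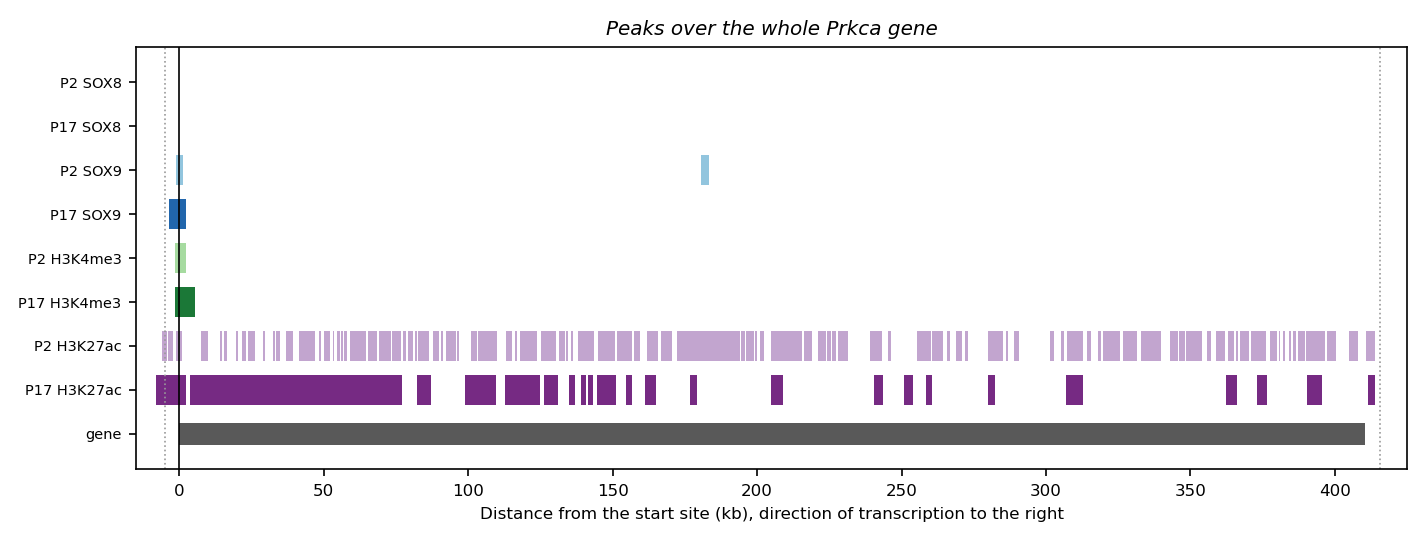
Peaks over the whole of Prkca, as bars against distance from its start site in kb, with P2 pale and P17 dark, the gene in grey and dotted lines 5 kb beyond its ends. SOX9 stands at the start site at both ages and 180.5 kb inside the gene at P2 only, while H3K27ac has 100 peaks at P2 and 23 at P17, the widest of 73.5 kb near the start, in lists of 287845 and 29909 peaks.

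Vsx1 encodes a homeodomain factor of some cone bipolar types. It had no peak in any of the 8 lists, and its region (chr2:150680702-150689137 with 5 kb on either side) was the only one of the 8 that was empty. The nearest P17 peaks of both marks lay 59.2 and 59.5 kb away at Entpd6, and the nearest P2 H3K27ac peak 11.7 kb away at Acss1. SOX9 peaks were no closer than 214.3 kb at P2 and 898.7 kb at P17. Such an empty pattern is common: 3881 genes, or 17.7%, had no peak in any list. What the lists leave out below the authors' threshold is unknown.

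Cabp5 (chr7:13385960-13408887) encodes a calcium-binding protein of rod bipolar and some cone bipolar cells, and the start site in the promoter table, at position 13398155, lies inside the span of the gene. Its only peaks were 2 of H3K27ac at P17, both narrow for that list: 2073 bp over the start site (chr7:13398036-13400108), wider than 15.7% of the list, and 2149 bp at the far end of the gene (chr7:13406757-13408905), wider than 18.2%. Their positions relative to the start site ran from -119 to 1953 bp and from 8602 to 10750 bp. It was the 1 of 8 members with H3K27ac at P17 and none at P2, which 0.315% of all genes showed. With only the wider 50% of each list, Cabp5 had no P17 H3K27ac peak, and the 1 member with H3K27ac at P17 only was Grm6. By the full lists, 0 of 8 had H3K27ac at P2 only, against 25.1% of all genes. The nearest H3K4me3 peaks were 105.4 kb away at P2 and 105.7 kb at P17. Only 42 genes, or 0.192%, shared this pattern.

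Pcp2 encodes a modulator of Gi and Go proteins in ON bipolar cells, also known from Purkinje cells of the cerebellum. It is the shortest member, at 2179 bp (chr8:3623369-3625547), and its count of H3K4me3 came from its neighbours: the peaks of 3440 bp at P2 (chr8:3619192-3622631) and 3040 bp at P17 (chr8:3619552-3622591) did not touch Pcp2 and lay over the start sites of Xab2 and Pet100. H3K27ac at P2 likewise met none of the gene, with a peak at Xab2 and Pet100 and a further one at Stxbp2. At P17 a single H3K27ac peak of 7376 bp (chr8:3620131-3627506) covered the whole of Pcp2 and all 4 of its start sites, together with those of Xab2 and Pet100. A P17 SOX9 peak of 15462 bp (chr8:3602403-3617864, at Camsap3 and Xab2) ended 5505 bp from Pcp2, just outside the 5 kb limit, where the nearest P2 SOX9 peak was 122.3 kb away.

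Counted at the members' own start sites alone, the order of the ages was the same, although the P17 H3K27ac peaks at Grm6 and Pcp2 also lay over start sites of neighbours. A member was counted if any of its start sites was covered, whereas the shares beside the counts are of single start sites, so the units differ. The 8 members have 12 start sites, with 4 at Pcp2 and 2 at Trpm1. At P17 the second Trpm1 start site was in no peak of either mark, and those of Pcp2 were in no H3K4me3 peak. H3K4me3 lay over a start site of 1 of 8 members at P2 (Prkca), where 43.9% of 21262 start sites of protein-coding genes were covered, and of 4 of 8 at P17 (Grm6, Trpm1, Lrit3 and Prkca), where 45.2% were. H3K27ac lay over a start site of 4 of 8 at P2 (60.4% of all start sites) and of 7 of 8 at P17 (46.9%); Grm6, Cabp5 and Pcp2 were the members with it at P17 only. SOX9 lay over the start sites of Gpr179 and Prkca at P2 (22.6% of all start sites) and of Prkca at P17 (10.7%). SOX8 lay over none (12.2% at P2 and 8.55% at P17).

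**Figure D3:**
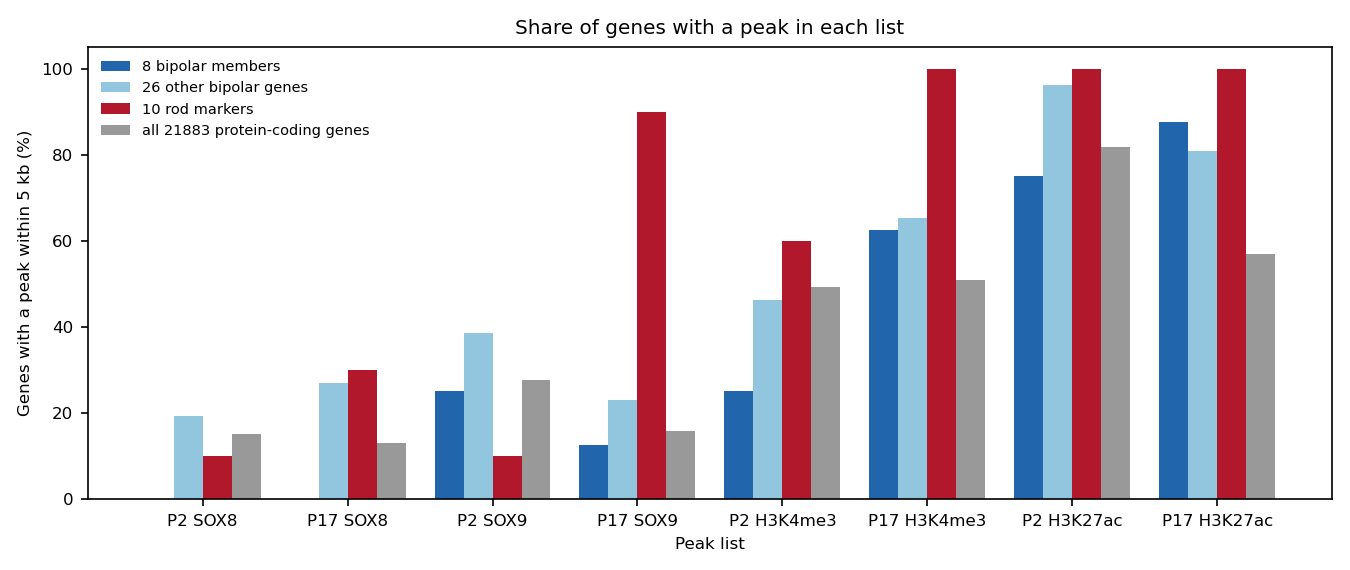
Share of genes (%) with a peak within 5 kb in each of the 8 lists, as bars for the 8 members, 26 other genes of bipolar cells, 10 rod markers and all 21883 protein-coding genes. The members have no bar for SOX8 and stand at 25% for SOX9 and H3K4me3 at P2, while the rod markers reach 90% for SOX9 at P17.

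A further 26 genes of bipolar cells gave a wider view: 7 of the mGluR6 cascade, 11 transcription factors and 8 other markers. H3K4me3 was listed at 12 of 26 at P2 (49.3% of all genes) and 17 of 26 at P17 (50.9%). It was at P17 only in 6 (Rgs7, Rgs11, Bhlhe23, Isl1, Grik1 and Strip2; 5.0% of all genes) and at P2 only in 1 (Neto1; 3.4% of all genes). H3K27ac was listed at 25 of 26 at P2 (81.8% of all genes) and 21 of 26 at P17 (57.0%). With the P2 H3K27ac list cut to its 29909 widest peaks, the P2 count was 17 of 26, below that of P17. The order of the ages for H3K27ac thus depended on the size of the P2 list. SOX9 was listed at 10 of 26 at P2, or 38.5% (27.7% of all genes), and at 6 at P17, or 23.1% (15.7%). SOX8 was listed at 5 at P2, or 19.2% (15.1%), and at 7 at P17, or 26.9% (13.0%).

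Of the 10 genes with P2 SOX9, 7 were among the 11 transcription factors, of which 2 had SOX9 at P17; over all genes these shares were 27.7% and 15.7%. Otx2, which bipolar cells and photoreceptors both need, had the same pattern as Prkca, with SOX9 and both marks at both ages and no SOX8, a pattern of 311 genes or 1.42%. Its P2 SOX9 peaks were of 8263 and 5323 bp, and its P17 SOX9 peak was of 5195 bp and lay over the start site. Irx5, a factor of some cone bipolar types, had SOX8 and SOX9 at both ages, with a P2 SOX9 peak of 12951 bp, wider than 99.7% of its list. Its P2 SOX8 peak of 1298 bp was wider than only 1.88% of its list and lay outside the gene. The P17 SOX8 peak at Irx5 shared 110 bp with the gene. Prdm8, a factor in the making of rod bipolar cells, had SOX8 at both ages, but its P17 SOX8 peak was 40 bp wide in a list whose median was 2912 bp.

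Of the 7 cascade genes outside the members, 5 had P17 SOX8 (13.0% of all genes) and 4 had P17 SOX9 (15.7% of all genes). The cascade members Grm6, Trpm1, Lrit3 and Gpr179 had no SOX peak at P17. These differences were not tested. Gnao1, the G protein alpha subunit that mGluR6 acts through, met all 8 lists; SOX8 lay over its start site at both ages, and at P17 peaks of SOX8 (5793 bp) and SOX9 (6352 bp) lay inside the gene, centred 142.7 and 144.6 kb from the start site. Gng13, a gamma subunit, had SOX8 (2241 bp) and SOX9 (6514 bp) over its start site at P17, and both peaks also overlapped the neighbour Chtf18. A second P17 SOX8 peak of 9875 bp lay off Gng13, over start sites of Chtf18 and Rpusd1. At P2 no SOX peak lay within 5 kb of Gng13, but a SOX9 peak did within 10 kb. Gnb3, the beta subunit, met all 8 lists, but its SOX8 peak at P2 lay at Cdca3 and Usp5 and not over Gnb3. A P17 SOX8 peak of 3095 bp overlapped Gnb3 together with P3h3. SOX9 peaks overlapped Gnb3 together with P3h3 at both ages, of 2951 bp at P2 and 2659 bp at P17. At Cdca3 and Usp5, P2 SOX9 and P17 SOX8 and SOX9 peaks were also listed. The brake subunit Gnb5 had SOX8 (2836 bp) and SOX9 (7425 bp) at P17 only, the second over its start site. Rgs11, a brake of the G protein, had SOX8 (4349 bp) at P17, in a peak shared with Arhgdig. Rgs7, the other RGS brake, as well as Bhlhe23, a factor of rod bipolar cells, and Strip2 had the pattern of Grm6, Trpm1 and Lrit3; their P17 H3K4me3 peaks of 5831, 3860 and 4161 bp each lay over the gene's own start site. Among the 8 other markers, 1 had SOX9 at P2 (Sebox; 27.7% of all genes). None had a SOX peak at P17, where 13.0% of all genes had SOX8 and 15.7% had SOX9.

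**Figure D4:**
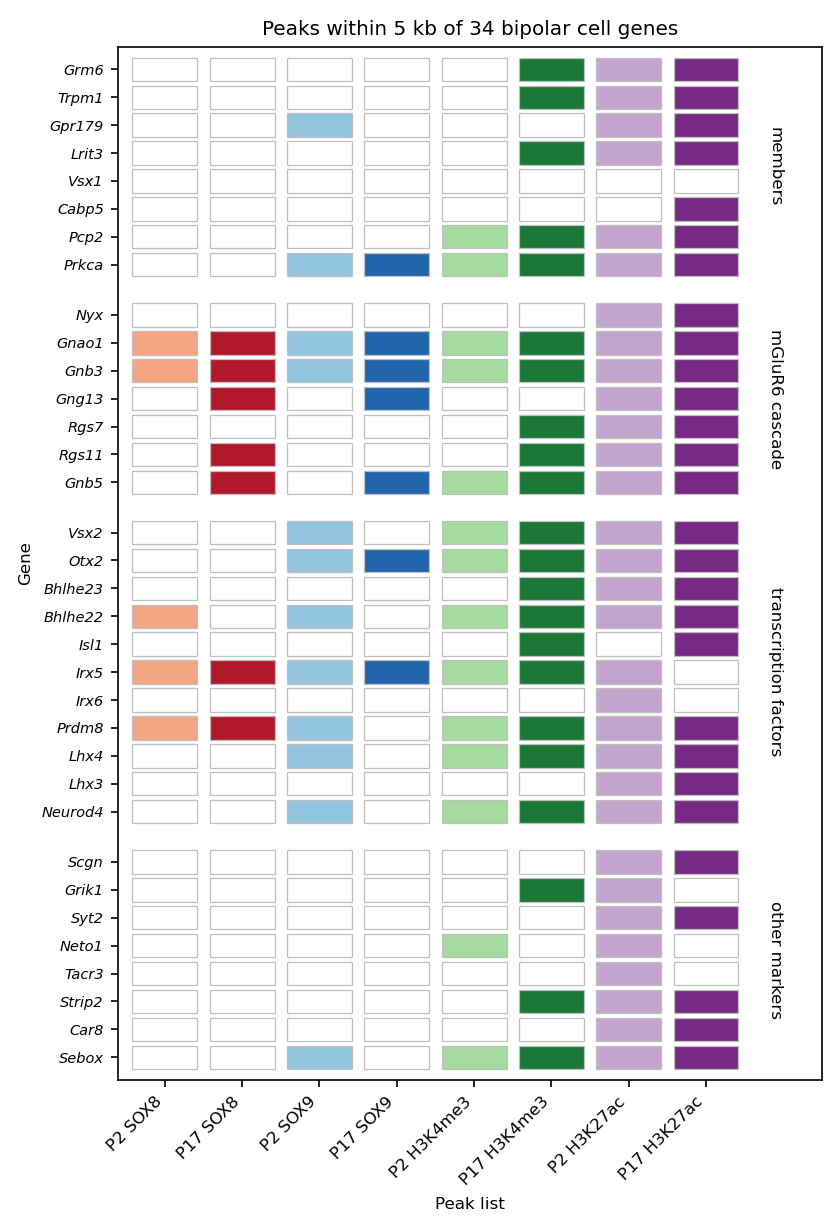
Filled cells show a peak within 5 kb of a gene (rows: 8 members, then 7 cascade genes, 11 transcription factors and 8 other markers) in each of the 8 lists (columns, pale for P2 and dark for P17). Both SOX8 columns are empty over the members, which include Grm6, Trpm1, Lrit3 and Gpr179 of the same cascade, and P17 SOX8 is filled in 5 of the 7 cascade genes outside the members.

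Markers of other retinal cells were counted in the same way, since whole retina holds them all. Over all genes, the shares with a peak were 49.3% at P2 and 50.9% at P17 for H3K4me3, 81.8% and 57.0% for H3K27ac, and 27.7% and 15.7% for SOX9. At P17 H3K4me3 was listed at 10 of 10 rod markers, 1 of 8 cone, 3 of 9 Müller glia, 6 of 7 amacrine, 0 of 7 ganglion cell and 0 of 7 microglia and endothelial markers, beside 5 of 8 members. At P2 the counts were 6, 1, 7, 6, 2 and 0 in that order, beside 2 of 8. H3K27ac went from 10 to 10, 8 to 4, 9 to 7, 7 to 5, 4 to 1 and 7 to 1 between the ages, beside 6 to 7 in the members. P17 SOX9 was listed at 9 of 10 rod markers and at 1 of 8 members. Of the rod markers, 8 had it at P17 only, as did 4.34% of all genes. P2 SOX9 was listed at 1 of 10 rod, 0 of 8 cone, 6 of 9 Müller glia and 4 of 7 amacrine markers. It was listed at 0 of 7 ganglion cell and 0 of 7 microglia and endothelial markers, beside 2 of 8 members. At P17 the SOX9 counts were 9, 0, 1, 2, 1 and 0 in that order. The part of other cell types in the marks at the 8 genes was not tested, and the differences between these lists of genes were not tested either.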

How the data were processed

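The measurement was CUT&RUN on 24 libraries of mouse retina. The submitters' processing notes name Bowtie2, SEACR and the build GRCm38; versions, threshold, use of IgG and the way in which replicates were combined are not given in the sources used here. The deposited lists hold chromosome, start and end of each peak and a score of 0 in every row; they have no other unit, and depth is unknown. Starts were shifted to count from 1.

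Gene ends, start sites and promoter sequences came from RefSeq tables of GRCm38.p6, in which all 8 members matched; exons and introns are not in these tables. Peaks were joined to genes with Python 3.11.15, pandas 2.3.3 and NumPy 2.4.6, and the overlap code was checked on simulated peaks. Every peak that met a gene with 5 kb on either side was recorded, with its width, its distance from the start site and the percent of its list that is narrower. The share of all protein-coding genes with a peak was computed for each list as background.

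The members and gene lists were chosen with earlier results of these data known. Named genes are all members, and those of the 26 other bipolar genes that share a member's pattern over the 8 lists or have a P17 SOX peak, with the lists of genes that differ between the ages added after their values were seen. The length class of 100 kb and the base composition were also added then. Alternatives changed the region, the overlap and the peaks kept.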

Additional observations from a re-analysis of the deposited data

How the results depend on the processing

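Of 156 values recomputed under alternatives, 142 stayed within 1.5 times the reported count. These include counts of 0 that stayed at 0, and counts that stayed the same while the genes behind them changed. Members with P2 H3K27ac, also among them, went from 6 to 4 with the gene alone and with 1 kb around start sites. With the P2 H3K27ac list cut to its 29909 widest peaks, that count was again 4. The same cut took the other bipolar genes with P2 H3K27ac from 25 to 17. The reported P17 counts were 7 members and 21 other bipolar genes. With 10 kb on either side, members with P2 SOX8 went from 0 to 1 (Gpr179, also then the 1 member with SOX8 at P2 only), members with P17 SOX9 from 1 to 2 and those with SOX9 at P17 only from 0 to 1 (Pcp2). Members with P2 H3K4me3 went from 2 to 1 with the gene alone, with 1 kb around start sites and with the wider 50% of each list, each time without Pcp2. Members with H3K27ac at P17 only went from 1 to 3 (Cabp5, Grm6 and Pcp2) with the gene alone, with 1 kb around start sites and with the P2 H3K27ac list cut to its 29909 widest peaks, and to 2 when at least 50% of a peak had to lie in the region. With the wider 50% of each list that count stayed at 1, but the gene was Grm6 and not Cabp5. Among the other bipolar genes, P2 SOX8 went from 5 to 3 with the gene alone and around start sites, and P17 SOX8 from 7 to 4 with the wider 50% of each list. Other bipolar genes with no start site in the promoter table, Irx5 among them, were given 1 kb around both gene ends instead. Leaving out peaks under 500 bp moved no count beyond 1.5 times, and neither did asking that SOX9 peaks at members share 50% of the shorter peak with another list. The 3 members with H3K4me3 at P17 only numbered 3 under each alternative run. No paired analysis was possible because the lists carry no replicate, so no replicate could be left out either. Without scores or depth, a gene with no peak is one below an unknown threshold.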
